A study of Mus musculus with 6 samples.

Results

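The p53 pathway and its target genes are described here as 34 named genes, read in the livers of control mice and of mice that lack small Maf proteins in the liver. Members are the probes whose accession names 1 of these genes, with 1 probe kept per gene, the one with the highest mean over the arrays. All 34 genes were found and all 34 passed the filter on dim probes, among 21059 genes and unmatched transcripts tested. The series holds 6 one-colour arrays of total liver RNA from mice aged 5 weeks, 3 of wild type controls and 3 of the liver-specific small Maf knockout (sMaf CKO). Every mouse was of mixed 129Sv/J, C57BL/6J and ICR background, and the RNA samples are described as independent. The labels name neither the small Maf genes that were removed, nor the promoter that drove the deletion, nor the sex of the mice.

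p53 is a transcription factor held at a low level by the ubiquitin ligase Mdm2 and its partner Mdm4, and stabilised when DNA is damaged, replication is disturbed or growth signals are abnormal. It then switches on genes that halt the cell cycle, promote apoptosis, repair DNA or adjust metabolism, and also genes such as Mdm2 that end the response. Small Maf proteins (MafF, MafG and MafK) form dimers with CNC factors such as Nrf1 and Nrf2, which drive antioxidant and detoxification genes in liver through the antioxidant response element.

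Values are log2 processed intensities minus the 75th percentile of the same array, so that 0 means as bright as that percentile, and a difference is sMaf CKO minus control on this log2 scale. The 75th percentile itself lay between 483 and 961 intensity units, and an array read 58.0% to 73.6% of its probes well above background. Replicates 1 and 2 of both genotypes shared slide 1, and replicate 3 of both was on slide 2, whose arrays had the lowest shares (58.0% and 58.7%). Mafg, a small Maf gene, read 1.88, 1.87 and 2.23 in the controls and -2.97, -4.36 and -0.76 in the sMaf CKO livers. All sMaf CKO arrays were thus below all controls, with the weakest loss on sMaf CKO replicate 3, and the difference was -4.69 ± 0.79 (SE; adjusted p = 0.0533, and 0.0207 with the slide as a block). Maff differed by 0.15 (adjusted p = 0.911) and Mafk by 0.21 (adjusted p = 0.759), and whether any of these probes lies in a deleted part is not stated. Of the hepatocyte markers 10 of 10 tested were read in every group, with Alb (albumin) at 8.84 to 9.75 on the 6 arrays. None of those 10 passed the test and 1 had an unadjusted p under 0.05, all 10 were lower in the sMaf CKO livers, and their median difference was -0.41.

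The promoters of 5 members are shown because 4 of them belong to the genes that rose, the other being Mdm2, and they differ in whether they hold a p53 half-site. Each line gives the 250 bases before a RefSeq transcription start, 5′ to 3′ on the strand of the gene. Capitals mark p53 half-sites, the 10-base unit that p53 binds as a pair, or a pair of them with at most 1 mismatch.
Cdkn1a: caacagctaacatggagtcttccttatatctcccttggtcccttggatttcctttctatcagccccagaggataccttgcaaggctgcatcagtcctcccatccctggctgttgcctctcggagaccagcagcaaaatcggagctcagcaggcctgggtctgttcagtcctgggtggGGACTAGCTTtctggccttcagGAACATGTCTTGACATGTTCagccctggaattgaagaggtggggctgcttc
Ccng1: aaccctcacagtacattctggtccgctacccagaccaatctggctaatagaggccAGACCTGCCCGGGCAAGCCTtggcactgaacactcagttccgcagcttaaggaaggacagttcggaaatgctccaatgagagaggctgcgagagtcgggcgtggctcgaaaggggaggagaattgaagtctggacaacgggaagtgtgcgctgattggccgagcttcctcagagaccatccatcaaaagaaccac
Mdm2: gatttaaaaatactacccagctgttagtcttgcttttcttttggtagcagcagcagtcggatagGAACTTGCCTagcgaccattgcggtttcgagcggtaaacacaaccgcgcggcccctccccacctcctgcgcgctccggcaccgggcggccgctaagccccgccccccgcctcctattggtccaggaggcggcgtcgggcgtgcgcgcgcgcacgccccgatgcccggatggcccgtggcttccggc
Phlda3: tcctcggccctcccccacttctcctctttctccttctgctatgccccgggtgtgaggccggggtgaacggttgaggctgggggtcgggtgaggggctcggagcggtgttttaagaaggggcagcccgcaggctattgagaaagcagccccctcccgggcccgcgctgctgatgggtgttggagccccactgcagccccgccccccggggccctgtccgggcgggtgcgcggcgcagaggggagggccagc
Psrc1: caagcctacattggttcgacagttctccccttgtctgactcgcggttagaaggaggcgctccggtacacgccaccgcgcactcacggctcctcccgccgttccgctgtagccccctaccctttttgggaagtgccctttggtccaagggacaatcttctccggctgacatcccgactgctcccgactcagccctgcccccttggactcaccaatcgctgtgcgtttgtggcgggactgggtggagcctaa
In build GRCm38.p6 these lie at chr17:29090729-29090978 on the plus strand (Cdkn1a, the first of its 2 starts in the table), chr11:40755287-40755536 on the minus strand (Ccng1), chr10:117710759-117711008 on the minus strand (Mdm2), chr1:135765835-135766084 on the plus strand (Phlda3) and chr3:108383554-108383803 on the plus strand (Psrc1, the first of 2 starts). The Cdkn1a window held a half-site at -73 to -64 and a paired element with 1 mismatch at -51 to -32, counted from the start, where -1 is the last base shown. The window of the other Cdkn1a start, not shown, held no half-site and no paired element. Ccng1 held a paired element with 1 mismatch at -195 to -176, and Mdm2 a single half-site at -186 to -177. No half-site was in the windows of Phlda3 and Psrc1, which says only that these letters are absent from those windows.

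RefSeq windows of 300 bases (250 before and 50 after the start) were at hand for 26 of the 34 members. A p53 half-site was searched on both strands, by itself or inside a paired element. It was in the windows of 13 of these 26 genes (50%), against 9.55% of the 27025 genes in the table. Some genes had several windows, and by window the shares were 35.9% of 39 for members and 8.36% of all 32851. The exact paired element of 20 bases was in 0 of the 26 and in 3 of the 27025 genes (0.0111%). With at most 1 mismatch, a setting chosen after seeing the data, it was in 3 of the 26 (11.5%) against 0.107% of all genes. These were Cdkn1a, Ccng1 and Gtse1, the last with this element across its start:
Gtse1: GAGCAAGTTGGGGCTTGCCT
The CNC-sMaf element, TGANNNNGC on either strand, was in the windows of 16 of the 26 genes (61.5%), against 45% of all genes in the table. By window the shares were 56.4% and 41.3%. This element overlapped a p53 half-site in Polk. A match is a description of the letters and not a measured binding site.

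In the sMaf CKO livers 4 members rose at an adjusted p under 0.05: Cdkn1a, Psrc1, Phlda3 and Ccng1, in a limma fit over all genes. No member fell. Over all genes tested, 0.385% were called higher and 0.157% lower. Of the 34 members 25 had a higher mean and 9 a lower one, and the median difference of the list was 0.98, against -0.05 over all genes. Scaling to E1A spike-in probes, which moved the median of all genes to 0.25, turned the sign of 6 of those 9, and 2 turned with quantile normalization. At an unadjusted p under 0.05, 18 members were higher and 0 lower, where 1835 of all 21059 genes (8.71%) were higher and 1706 lower. At an adjusted p under 0.1, 11 members were higher, against 1.42% of all genes. Every sMaf CKO array was above every control array for 20 members (11.3% of all genes) and below for 1, Mdm4 (11.6% of all genes), and the groups overlapped for 13. With the slide as a block 8 members were called higher, against 0.992% of all genes, adding Eda2r, Gtse1, Pmaip1 and Tnfrsf10b. Liver is a mixture of cells, and in bulk RNA fewer cells of a type and less RNA per cell cannot be told apart.

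**Figure D1:**
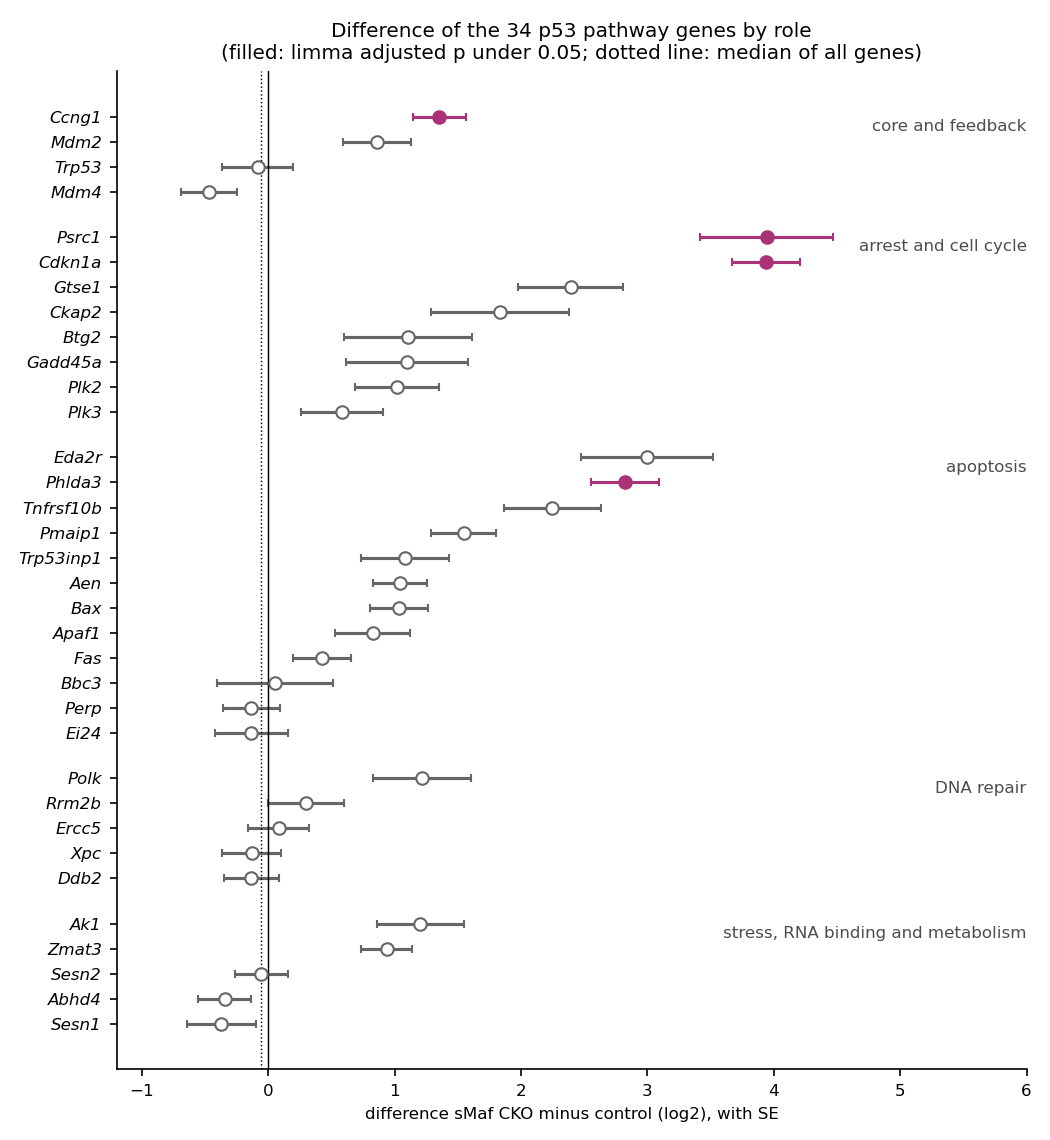
The difference sMaf CKO minus control (log2, point with SE) of each of the 34 genes, grouped by role, with 3 arrays per group, filled points for the 4 genes past an adjusted p of 0.05, and a dotted line at the median of all genes (-0.05). The arrest and cell cycle genes all lie right of 0, from 0.58 for Plk3 to 3.94 for Psrc1, while most repair genes lie close to 0.

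Among the core and feedback genes, 1 of 4 rose, 2 of 4 had an unadjusted p under 0.05, and the median difference was 0.39. Trp53, which encodes p53 itself, read 0.71 and 1.06 on control replicates 2 and 3 and 0.88, 0.48 and 1.04 on the sMaf CKO arrays, the spot of control replicate 1 being left out as an outlier in the scanner file. The groups overlapped. The difference was -0.08 ± 0.28 (SE), with a 95% interval of -0.76 to 0.59 and an adjusted p of 0.910, and a second, dimmer Trp53 probe differed by 0.20. In the authors' deposited table, from which no outlier spot was left out here, the Trp53 difference was -0.73. Over all alternatives it ran from there to 0.39. p53 is regulated largely through the stability of the protein, which these arrays do not read.

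Mdm2, the ligase that marks p53 for degradation and is itself a p53 target, read -0.39, 0.37 and 0.11 in the controls and 1.17, 0.72 and 0.79 in the sMaf CKO livers. Every sMaf CKO array was above every control, control replicate 1 being the lowest. The difference of 0.86 ± 0.27 (SE; 1.81-fold) did not pass the test over all genes (adjusted p = 0.188), and a second probe differed by 0.55. Mdm4, which binds and blocks p53 without degrading it, read -1.30, -1.83 and -1.53 in the controls and -2.02, -2.13 and -1.92 in the sMaf CKO livers. On the probe kept per gene, it was the single member with all sMaf CKO arrays below all controls, by a small margin from control replicate 2. Its difference was -0.47 ± 0.22 (SE; adjusted p = 0.341; -0.29 with normexp), and its other probes, at 0.03 and 0.39, did not share that sign.

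Ccng1 (cyclin G1), a p53 target that brings a phosphatase to Mdm2, read 1.23, 1.11 and 1.24 in the controls and 2.66, 2.29 and 2.68 in the sMaf CKO livers. Both groups were tight and far apart, with sMaf CKO replicate 2 the lowest of its group. Ccng1 rose by 1.35 ± 0.21 (SE), a 2.56-fold change, at an adjusted p of 0.0493 that lay just inside the threshold, and its second probe differed by 0.86. Within slide 1 the difference was 1.31 and within slide 2 it was 1.44. The call was lost on leaving out any 1 of the 6 arrays, at adjusted p of 0.0569 (without sMaf CKO replicate 3) to 0.174 (without control replicate 1), and over all alternatives the adjusted p ran from 0.0155 to 0.321. Its promoter is the one above with a paired element at -195 to -176.

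Of the 8 arrest and cell cycle genes 2 rose, 5 had an unadjusted p under 0.05, all 8 had a higher mean, and the median difference was 1.47. Cdkn1a encodes p21, the inhibitor of cyclin-dependent kinases through which p53 halts the cell cycle. It read -2.78, -2.17 and -2.55 in the controls and 1.84, 1.19 and 1.28 in the sMaf CKO livers. No sMaf CKO array came near a control array, and sMaf CKO replicate 1 was the highest. The rise of 3.94 ± 0.27 (SE) is a 15.3-fold change with a 95% interval of 3.31 to 4.57 on the log2 scale (adjusted p = 0.00857), the second smallest p of all 21059 genes and transcripts. It was 3.99 within slide 1 and 3.83 within slide 2, and 3.27 with normexp, which lies below that interval. The call stood without each of the 6 arrays in turn, at adjusted p of 0.00511 to 0.0389, and over all alternatives the adjusted p ran from 0.000763 to 0.0518, the last with no filter on dim probes.

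Psrc1, a microtubule-binding protein of the mitotic spindle that is also listed as a p53 target, read -3.57, -1.90 and -3.70 in the controls and 1.52, 0.32 and 0.83 in the sMaf CKO livers. The groups did not overlap, and control replicate 2 stood well above the other controls. Psrc1 rose by 3.94 ± 0.53 (SE; 15.4-fold; adjusted p = 0.0382), and its other probes differed by 3.45 and 2.89. The difference was 3.65 within slide 1 and 4.52 within slide 2, and 3.01 with normexp. Its call was lost on leaving out control replicate 1 (adjusted p = 0.161) or 3 (0.106) or sMaf CKO replicate 1 (0.142) or 2 (0.0840), within a range over all alternatives of 0.0106 to 0.161.

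Gtse1, a microtubule-binding protein of G2 phase that restrains p53, read -5.23, -3.83 and -5.09 in the controls, where 2 of 3 arrays were well above background, and -1.85, -2.64 and -2.48 in the sMaf CKO livers. The arrays separated, again with control replicate 2 the highest control, and the difference was 2.39 ± 0.41 (SE; adjusted p = 0.0561, and 0.0416 with the slide as a block). Gtse1 differed by 1.03 with normexp background correction. Ckap2, another spindle protein, read -3.60, -1.84 and -4.07 against -0.94, -1.61 and -1.44, a difference of 1.84 (adjusted p = 0.174), or 1.06 with normexp. Control replicate 2 lay just below the lowest sMaf CKO array for Ckap2, and the other controls far below.

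Because Psrc1, Gtse1 and Ckap2 encode proteins of the spindle or of G2 phase, a list of 20 mitosis markers is set beside them. None of the 20 was called by limma without a block, 13 had an unadjusted p under 0.05, 19 were higher in the sMaf CKO livers, and the median difference was 1.65. The mean of the list, taken as the difference from each gene's control mean, was -0.55, 1.46 and -0.90 on the control arrays and 1.82, 1.71 and 1.49 on the sMaf CKO arrays. Control replicate 2 was thus close to the sMaf CKO arrays for mitosis markers as well. The mitotic kinase gene Aurka (2.29, adjusted p = 0.114) and Cdc20, an activator of the anaphase ligase (2.29, adjusted p = 0.123), had the smallest p of the list. Aurka was called with the replicate number as a block (adjusted p = 0.0448). Without control replicate 2 the calls among the members were 6 (Cdkn1a, Ckap2, Gtse1, Phlda3, Psrc1 and Tnfrsf10b), where 175 of 21058 genes were called. The Psrc1 difference was then 4.52. For Cdkn1a, control replicate 2 at -2.17 was also the highest control, beside -2.78 and -2.55. The part of cell division in the levels of Psrc1, Gtse1, Ckap2 and Cdkn1a was not tested.

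The remaining arrest genes did not pass the test. Plk2 and Plk3, stress-responsive polo-like kinases, differed by 1.02 ± 0.33 (SE; adjusted p = 0.202) and 0.58 ± 0.32 (adjusted p = 0.407). Btg2, an antiproliferative factor, differed by 1.11 ± 0.51 (adjusted p = 0.323), and Gadd45a, a growth arrest and DNA damage gene, by 1.096 ± 0.48 (adjusted p = 0.308). These differences were uneven between the slides. Btg2 differed by 1.504 within slide 1 and 0.31 within slide 2, and Gadd45a by 1.64 and 0.0021. The other Btg2 probes differed by only 0.46 and 0.41, and within slide 2 both were lower in the sMaf CKO liver.

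**Figure D2:**
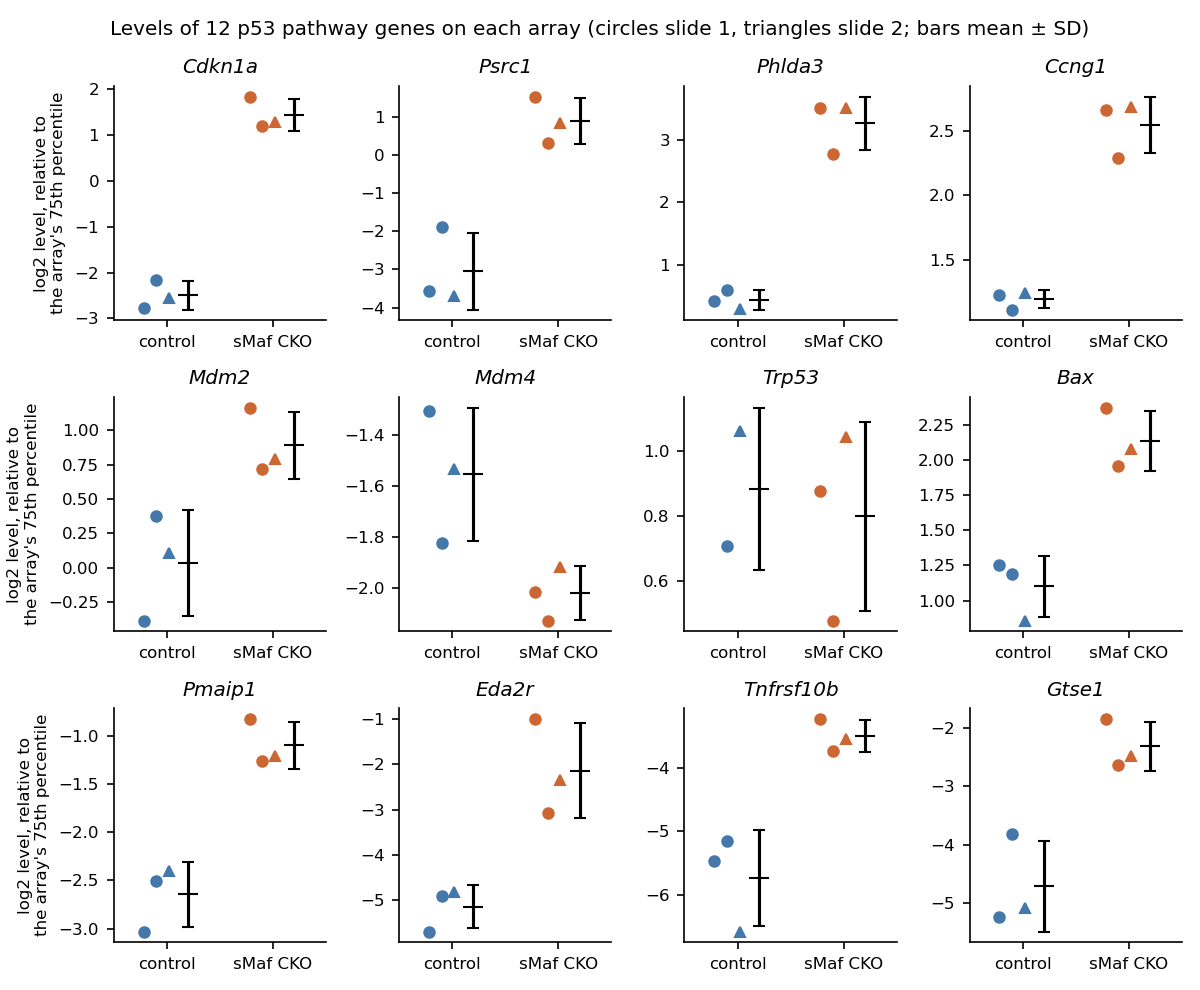
Log2 level relative to the array's 75th percentile (vertical axis, a separate scale in each panel) of 12 genes on each array, with circles for slide 1, triangles for slide 2, and bars for the mean and SD of each group. The 3 sMaf CKO points of Cdkn1a lie at 1.19 to 1.84 and the controls at -2.78 to -2.17, whereas the Trp53 points of both groups share the range 0.48 to 1.06.

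Of the 12 apoptosis genes 1 rose, 8 had an unadjusted p under 0.05, 10 had a higher mean, and the median difference was 1.04. Phlda3, a pleckstrin-homology protein that keeps the survival kinase Akt off the membrane, read 0.42, 0.60 and 0.29 in the controls and 3.51, 2.77 and 3.50 in the sMaf CKO livers. The 3 controls were close together and every sMaf CKO array was far above them, sMaf CKO replicate 2 being the lowest. Phlda3 rose by 2.83 ± 0.27 (SE; 7.09-fold; 95% interval 2.20 to 3.45; adjusted p = 0.0134), the 13th smallest p of all. It was 2.63 within slide 1 and 3.21 within slide 2. The call failed when replicate 1 of the controls (adjusted p = 0.119) or of the sMaf CKO group (0.0858) was left out, within a range over all alternatives of 0.00217 to 0.119. Unlike the windows of Cdkn1a and Ccng1 shown above, its promoter window held no half-site.

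The list also holds cell surface receptors. Eda2r, the receptor for ectodysplasin A2, read -5.69, -4.90 and -4.81 in the controls, with 1 of 3 control arrays well above background, and -0.996, -3.07 and -2.35 in the sMaf CKO livers. The sMaf CKO arrays were all above the controls but spread widely among themselves, and the difference was 2.997 ± 0.52 (SE; adjusted p = 0.0566). With normexp background correction it was 1.29. Eda2r met the filter of 3 arrays only because of its sMaf CKO arrays, which favoured its place in the counts of members. Its other probes, too dim to be kept, differed by 0.66 and 2.06. Tnfrsf10b, the mouse TRAIL death receptor, read -5.47, -5.16 and -6.59 in the controls, with 2 of 3 arrays well above background, and -3.22, -3.72 and -3.53 in the sMaf CKO livers. Its arrays separated, control replicate 3 on slide 2 being the lowest, and the difference was 2.25 ± 0.38 (SE; adjusted p = 0.0554, and 0.0259 with the slide as a block). With dim arrays set to the lowest signal above background, the Tnfrsf10b fold went from 4.75 to 3.18, and with normexp its log2 difference was 0.73. Fas, the receptor for Fas ligand, differed by 0.43 ± 0.23 (adjusted p = 0.397), and its second probe by -0.02.

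A further set of members acts at mitochondria. Pmaip1 (Noxa), a BH3-only protein, read -3.03, -2.50 and -2.40 in the controls and -0.82, -1.26 and -1.21 in the sMaf CKO livers. Its groups were well apart, and the difference was 1.55 ± 0.26 (SE; 2.92-fold; adjusted p = 0.0525, and 0.0416 with the slide as a block). Bax, which forms pores in the outer mitochondrial membrane, read 1.26, 1.19 and 0.86 in the controls and 2.37, 1.95 and 2.08 in the sMaf CKO livers, also without overlap. Its difference was 1.03 ± 0.23 (SE; 2.05-fold; adjusted p = 0.0978). Bbc3 (Puma), the other BH3-only gene of the list, showed a different pattern, with 2.65, 2.30 and 3.42 in the controls and 2.98, 1.96 and 3.58 in the sMaf CKO livers. Those ranges overlapped almost entirely, and the difference of 0.05 ± 0.46 had a 95% interval of -1.02 to 1.12. Apaf1, the scaffold of the apoptosome, differed by 0.83 ± 0.30 (adjusted p = 0.236).

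Aen, a nuclease of apoptotic cells, differed by 1.05 ± 0.21 (adjusted p = 0.0854), and Trp53inp1, a nuclear partner of p53, by 1.08 ± 0.35 (adjusted p = 0.196). For both genes all sMaf CKO arrays were above all controls. Perp, a membrane protein of desmosomes, differed by -0.13 ± 0.23 (adjusted p = 0.802), and Ei24, a protein of the endoplasmic reticulum, by -0.13 ± 0.29 (adjusted p = 0.848). The groups overlapped for both, and the sign of both turned with quantile normalization and spike-in scaling.

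Of the 5 DNA repair genes none was called by limma, 1 had an unadjusted p under 0.05, and the median difference was 0.08. That gene was Polk, a polymerase that copies past damaged bases, which read -2.93, -1.80 and -2.02 in the controls and -0.66, -1.65 and -0.80 in the sMaf CKO livers. The arrays separated narrowly, with sMaf CKO replicate 2 close to control replicate 2, and the difference was 1.22 ± 0.39 (adjusted p = 0.193). Rrm2b, a ribonucleotide reductase subunit that supplies nucleotides for repair, differed by 0.30 (95% interval -0.40 to 0.99). Among the nucleotide excision repair genes, the damage sensors Xpc and Ddb2 each differed by -0.13, with intervals of -0.67 to 0.41 and -0.64 to 0.37. The endonuclease gene Ercc5 differed by 0.08 (-0.48 to 0.65). The arrays of these 4 genes overlapped between groups, and every such interval leaves out a 2-fold change.

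The 5 genes of stress, RNA binding and metabolism had no call by limma, 2 with an unadjusted p under 0.05, and a median difference of -0.05. Those 2 were Zmat3, an RNA-binding zinc finger protein, at 0.94 ± 0.20 (adjusted p = 0.0937), and Ak1, an adenylate kinase, at 1.20 ± 0.34 (adjusted p = 0.163), or 0.65 with normexp. Zmat3 read -1.25, -1.08 and -1.197 in the controls and -0.19, -0.40 and -0.11 in the sMaf CKO livers, and so did not overlap. The sestrins, which restrain the growth kinase mTORC1, did not follow them: Sesn1 differed by -0.37 ± 0.27 (adjusted p = 0.529) and Sesn2 by -0.05 ± 0.21 (adjusted p = 0.922). The other, dimmer Sesn1 probes differed by -0.88 and -0.79, and on both all sMaf CKO arrays were below all controls. Abhd4, a lipid hydrolase, differed by -0.35 ± 0.21 (adjusted p = 0.448).

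**Figure D3:**
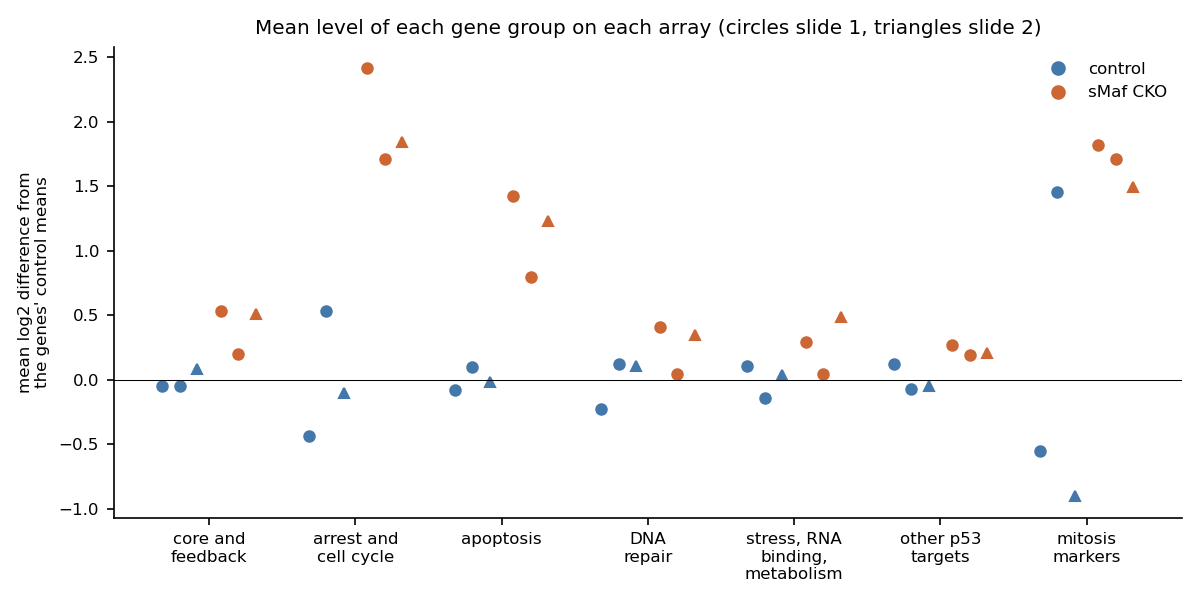
Mean log2 difference from the genes' control means (vertical axis) of each role group, of the other p53 targets and of the mitosis markers on each array, with circles for slide 1 and triangles for slide 2. The apoptosis genes lie at -0.08 to 0.10 on the controls and 0.80 to 1.42 on the sMaf CKO arrays, and control replicate 2 lies at 1.46 for the mitosis markers.

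Averaged in the same way over each role, the arrest genes were at -0.43, 0.53 and -0.10 on the controls and 2.41, 1.71 and 1.85 on the sMaf CKO arrays. The apoptosis genes were at -0.08, 0.10 and -0.02 on the controls and 1.42, 0.80 and 1.23 on the sMaf CKO arrays. Among the sMaf CKO arrays replicate 1 was the highest and replicate 2 the lowest for both roles. For DNA repair the range was -0.23 to 0.12 on the controls and 0.05 to 0.41 on the sMaf CKO arrays, which overlap.

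On slide 1, with 2 arrays per genotype, the median difference of the 34 members was 0.89, and on slide 2, with 1 array per genotype, it was 0.76. The medians over all genes were -0.06 and 0.01. Of the members 24 were higher in the sMaf CKO livers on both slides, 6 were lower on both and 4 differed in sign. Differences over 1 on both slides were found for 10 members. The matching shares over all genes were not counted, so these counts of members cannot be judged against them.

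**Figure D4:**
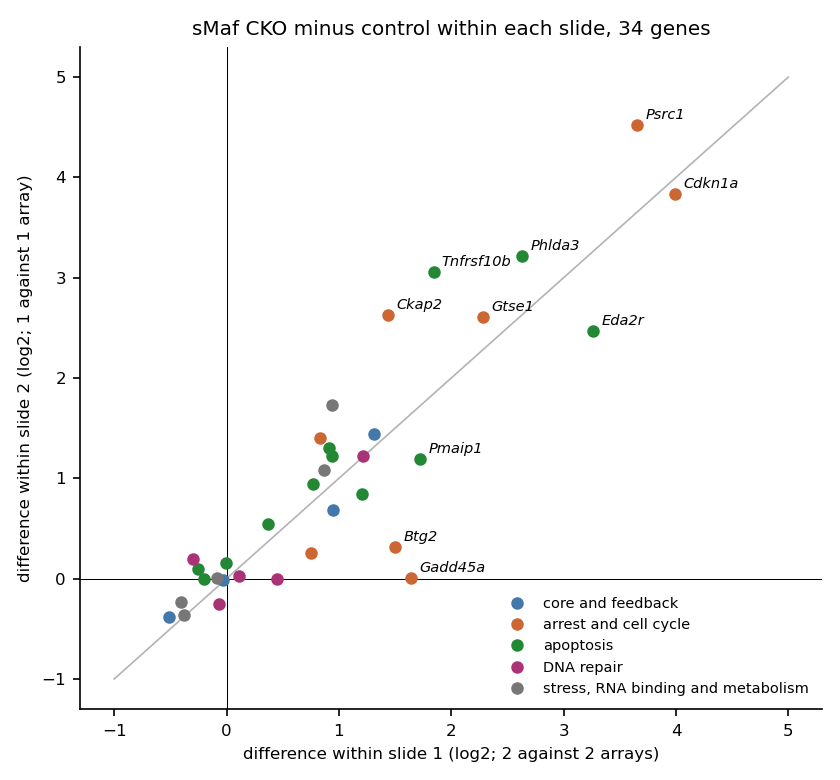
Difference sMaf CKO minus control (log2) of each of the 34 genes within slide 1 (horizontal, 2 arrays per group) and within slide 2 (vertical, 1 array per group), coloured by role, with the line of equal values in grey. Cdkn1a lies at 3.99 and 3.83, close to the line, and Gadd45a at 1.64 and 0.0021, far below it.

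The regulators above p53 in the pathway are given from their own lists. Of 13 genes tested for kinases and cofactors that activate p53, none was called by limma, 0 had an unadjusted p under 0.05, and the median difference was -0.13. The smallest p were those of the checkpoint kinase gene Chek1 (1.42, adjusted p = 0.310), read above background on 1 of 3 control arrays, and of Trp53bp1 (0.31, adjusted p = 0.560). Of 9 ligases and other proteins that limit p53 none was called, and 1, the ubiquitin chain enzyme gene Ube4b, had an unadjusted p under 0.05 (-0.61, adjusted p = 0.269). Daxx, which binds Mdm2, had the next smallest p there (0.43, adjusted p = 0.407). Trp73, the p53 relative that could be tested, differed by -0.05 (adjusted p = 0.954).

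A further list of 29 p53 targets, of which 27 were tested, held no gene called by limma. Of these 27, 4 were higher and 1 lower at an unadjusted p under 0.05, and the median difference was 0.10. Over all 21059 genes tested, 1835 were higher and 1706 lower at that unadjusted p. The stress gene Ier5 differed by 0.96 (adjusted p = 0.152). Gdf15, a secreted stress cytokine named after its values were seen, differed by 1.77 (adjusted p = 0.157).

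Macrophage markers moved with the genotype beside the members above. Of 13 macrophage markers tested 2 were called higher, 8 had an unadjusted p under 0.05, all 13 were higher, and the median difference was 0.81. Trem2 rose by 4.18 (18.1-fold; adjusted p = 0.0105). Gpnmb, the other call, was dim on all 3 control arrays and passed the filter only through the sMaf CKO arrays, which favoured its call and its place in these counts, and it was at least 22.2-fold higher. Marco differed by 3.73 (13.2-fold; adjusted p = 0.0859) and was called with the slide as a block (adjusted p = 0.0107), which made 3 calls. Averaged as above, these markers were at -0.50 to 0.25 on the controls and 1.11 to 1.89 on the sMaf CKO arrays. The part of these cells in the levels of the members was not tested.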

How the data were processed

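Each of 6 liver RNA samples was read on a one-colour Agilent array and grouped by the genotype in the labels. Per the file headers, the authors extracted the deposited spot intensity values with Agilent Feature Extraction 10.7.3.1. The deposited table of log2 values made by the authors, whose scaling no source used here states, served as an alternative. Control spots and outlier flags were left out, spots of a probe were averaged, and each array's 75th percentile was subtracted from its log2 values. A probe was kept if 3 or more of the 6 arrays read it well above background. Probes were named through RefSeq accessions. A limma model (version 3.58.1, R 4.3.3) with genotype as its one term was fitted to all 21059 genes and unmatched transcripts with Benjamini-Hochberg adjustment and called at 0.05, and was tested on simulated data. The design text calls the RNA samples independent without saying that each is 1 mouse, so p-values measure the spread between 3 samples per group, and that number limits the precision.

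Members and lists were chosen with earlier results of these data known. All members are named. Array values are given for called members, Trp53, Mdm2 and Mdm4, and for others chosen after their values were seen. From other lists the called genes are named, or the 2 with the smallest p, of which some are not reported here, and genes called under a block. Alternatives were quantile, median and spike-in scaling, normexp (offset 50) on median signals, since no mean spot signal is given, the dim filter, the mean of probes, blocks, eBayes with trend and each array left out. Same-numbered arrays deviated together by r of 0.063, 0.17 and 0.42, so the numbers were not taken as pairs. Promoters come from RefSeq's GRCm38.p6 table.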

Additional observations from a re-analysis of the deposited data

How the results depend on the processing

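The 4 calls among the members rest on 3 arrays per group. Members called, and all genes called in parentheses, were 2 (22) with quantile normalization, 8 (252) with median scaling and 1 (12) with E1A spike-in scaling. Quantile normalization moved the share of higher calls from 71.1% to 81.8%. With each array left out, that share ran from 48.6% (without sMaf CKO replicate 3) to 86.4% (without control replicate 3). The counts were 4 (74) with normexp, 4 (112) in the authors' value table and 3 (104) with the mean of probes, where Ccng1 was not called. With no filter on dim probes they were 0 (1). More genes were tested there (32301), but why the calls were lost was not tested. The counts were 5 (267) with probes well above background on all 6 arrays, 8 (340) with the slide block and 10 (308) with trend and robust eBayes. With each array left out, members called were 1 to 6 and all genes called 3 to 294. The 6 members went with 175 genes, and the 294 genes with 3 members. At an adjusted p under 0.1 the members called were 11. The replicate block gave 5 (291), and its calls outside the members included Aurka (adjusted p = 0.0448), Mafg (0.0256), Marco (0.0175) and Klf1, an erythroid marker (-1.56; 0.0384). Spike-in scaling moved the role medians to 0.67 (core and feedback), 1.34 (apoptosis), 0.38 (DNA repair) and 0.25 (stress), beside 0.25 for all genes. With normexp the arrest median was lower, at 1.04, and the apoptosis median was 0.84. With probes well above background on all 6 arrays these 2 medians were 1.11 and 0.93. The core median was 0.20 in the authors' value table, where Trp53 differed by -0.73, and 0.55 with the mean of probes. The arrest median was 2.003 within slide 2 and 1.29 to 1.93 with each array left out. The other role medians ran from 0.28 to 0.51 (core), 0.82 to 1.13 (apoptosis), 0.0033 to 0.27 (DNA repair) and -0.16 to 0.03 (stress) when each array was left out. Signs turned with quantile normalization for Ei24 (0.084) and Perp (0.11), with spike-in scaling for Trp53 (0.19), Ei24 (0.17), Perp (0.17), Xpc (0.17), Ddb2 (0.17) and Sesn2 (0.25), with normexp for Bbc3 (-0.0090), and for Trp53 on all 6 arrays (0.20) and with the mean of probes (0.39), both of which bring in its other probe. Within slide 1 Bbc3 turned (-0.0027), and within slide 2 Perp (0.10), Ddb2 (0.20) and Sesn2 (0.0075). With each array left out the differences ran from -0.26 to 0.092 for Trp53, -0.32 to 0.49 for Bbc3, -0.33 to 0.054 for Ei24, -0.27 to 0.030 for Perp, -0.30 to 0.0033 for Xpc, -0.058 to 0.27 for Ercc5 and -0.16 to 0.031 for Sesn2. Unless a reason is given above, the cause was not tested. The sign of 26 members turned in no alternative. Dim signal limits Eda2r, Gtse1 and Tnfrsf10b, which were near background in the controls.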

Other observations

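Of 11 genes of the integrated stress response tested, 2 rose in the sMaf CKO livers, where 0.385% of all genes were called higher. A higher mean was found for 9 of the 11 and a lower one for 2, and the median difference was 1.004. Nupr1, a stress-induced chromatin protein, rose by 3.75 ± 0.41 (SE; adjusted p = 0.0218), and Atf3, a stress transcription factor, by 3.45 ± 0.49 (SE; adjusted p = 0.0402). On all 3 sMaf CKO arrays both genes were above all 3 controls. Ddit3 differed by 2.07 (adjusted p = 0.0854) and was called with the slide (0.0354) or the replicate number (0.0495) as a block. Chac1 and Atf4 are named after their values were seen. Chac1 differed by -1.30 (adjusted p = 0.204), with all sMaf CKO arrays below all controls, and Atf4 by 0.01 (adjusted p = 0.988). Sesn2 belongs to this list as well as to the p53 targets.

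Of 19 genes of the DNA damage and replication stress response tested, none was called by limma, 3 were higher and 1 lower at an unadjusted p under 0.05, and the median difference was 0.05. Over all 21059 genes tested, 1835 were higher and 1706 lower at that unadjusted p.

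No marker of the remaining cell types was called by limma without a block or with the slide as a block. At an unadjusted p under 0.05 there were 1 of 7 cholangiocyte markers, 3 of 9 stellate cell markers, 0 of 7 endothelial markers, 1 of 9 T, B and NK cell markers, 0 of 6 neutrophil markers and 1 of 5 erythroid markers. Over all genes tested, 3541 of 21059 had an unadjusted p that low. All 9 stellate cell markers were higher in the sMaf CKO livers, with a median difference of 0.42.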
